A study of Homo sapiens with 4 samples.

Results

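Exons whose signal was lost while the rest of their gene kept more of its own were described in A2780/SRSF3si2 cells after SRSF3 knockdown. An exon array reads each exon through 1 or more probe sets, short stretches of a transcript with their own probes, so that 1 exon can be compared with the remainder of its gene. A probe set was taken as lost when it met 5 criteria, all set on the measured values or on the probe-to-gene table. It had exactly 1 gene symbol, its gene held at least 4 probe sets, and its No Doxy mean was at least 6 on the log2 scale. Each Doxy array was lower than each No Doxy array, and its Doxy minus No Doxy difference was at least 1.5 below the median of that difference over the other probe sets of the gene. This last distance is called the relative difference below, and -1.5 means that the probe set lost a further 1.5 log2 units beside what its gene did. Of 287329 probe sets in the file, 261273 had 1 symbol and 100684 in 12580 genes were bright enough and in large enough genes to be eligible. The criteria were met by 496 of the eligible probe sets (0.493%) in 415 genes (3.3% of the genes with an eligible probe set). Since these members were chosen by the same contrast that is described, their values are given as a description and no test was run on them.

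Pre-mRNA splicing joins exons and removes introns, and an exon can be included in some transcripts of a gene and left out of others. SR proteins such as SRSF3 bind short motifs in exons and help the spliceosome to recognise the neighbouring splice sites, so that an exon that depends on them can be skipped when they are scarce. A probe set can also lose signal through another promoter or another 3′ end. If it lies in an intron that is sometimes retained, less retention lowers it too. The array does not tell these events apart.

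The cells were a subline of A2780, a human ovarian cancer cell line, that carries an siRNA against SRSF3 (SRSF3si2) induced by doxycycline (Doxy). There were 2 arrays of cells grown without Doxy (No Doxy) and 2 of cells that had 0.1 μg/ml Doxy over 3 days, all of the same subline. The study's control subline with a luciferase siRNA (LUCsi) was not analysed here, so an effect of Doxy itself and an effect of SRSF3 knockdown cannot be told apart. No label says that the arrays of a group came from separate cultures, and the spread between them may be technical. The RNA was taken from whole cultures, so that less of a transcript in each cell and fewer cells with it cannot be told apart.

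SRSF3, the target of the siRNA, had a mean over its 8 probe sets of 8.50 and 8.33 in the No Doxy arrays and of 7.84 and 7.97 in the Doxy arrays. It was lower in both Doxy arrays, and none of its 6 eligible probe sets was lost relative to the others. KMT2C, BRCA1 and BRIP1, which the study followed on their own, also held none, with 60, 19 and 19 eligible probe sets. For KMT2C, the study found by RT-PCR and sequencing that knockdown raised the use of an alternative splice site inside an exon, which skips part of that exon. A rule that needs a large drop of a whole probe set can miss such a change. Probe sets were not placed in exons here, so the absence of a lost one does not bear on that result. Array medians over all probe sets were 5.20 and 5.04 without Doxy and 5.18 and 5.38 with Doxy. Of 18 cell type markers found, those of leukocytes and endothelium stayed between 1.99 and 4.43 in every array. Those of ovarian epithelial tumours (PAX8, WT1, MSLN) were low too, between 3.68 and 4.89, whereas among the fibroblast markers decorin (DCN) and lumican (LUM) lay between 8.36 and 9.29 and the collagens COL1A1 and COL1A2 between 4.29 and 5.55. Of the epithelial markers, EPCAM read 4.19 and 4.16 without Doxy and 6.31 and 6.24 with Doxy, CDH1 3.32 and 3.505 against 4.60 and 4.07, and KRT8, KRT18 and KRT19 lay between 4.31 and 6.63. The part of these markers in the lost probe sets was not tested. No marker gene held a lost probe set.

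The 496 lost probe sets had a median relative difference of -1.75, with the lowest at -4.73. Their own Doxy minus No Doxy difference had a median of -1.73, and 422 were at least 2-fold and 168 at least 4-fold lower with Doxy. Their median signal was 7.0 without Doxy and 5.30 with Doxy, against 7.60 and 7.76 over all eligible probe sets. The loss was often partial, since 172 still had a Doxy mean of at least 6, and 57 ended under 4. The groups were apart in this direction in 22864 eligible probe sets (22.7%), so that this criterion alone was met by many that the rest of the rule left out. The 3 members nearest to the limit lay in CASP6, FTCD and TMEM150A (-1.502, -1.505 and -1.506), and the 3 nearest outside in SEC14L1, PABIR1 and RGS12 (-1.499, -1.499 and -1.498). The mirrored rule, with the signal minimum on the Doxy mean, gave 831 gained of 106656 eligible probe sets, in 695 genes. With that minimum on the No Doxy mean, as for the lost ones, 59 were gained, so that the 2 counts are not a balance of gains and losses. Both lost and gained probe sets lay in 46 of the 415 genes with a lost one. For scale, the 695 genes with a gained one stand beside 12580 genes that were eligible for a loss. Whether unrelated sets would share as many was not tested.

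The rest of the gene took 3 courses, which the plot of each probe set against its gene shows. In 294 lost probe sets of 252 genes the median of the other probe sets changed by at most 0.5, and these genes are called steady here. In 132 of 108 genes the others were higher with Doxy by over 0.5, and in 70 of 55 genes they were lower by over 0.5. Steady includes genes whose other probe sets were dim, since their No Doxy signal had a median of 5.43 over the 294. Against bright probe sets alone, those with a No Doxy mean of at least 6, 167 of the 294 were shown to stay at -1.5 or lower. The remainder lay above that or in genes with too few bright probe sets. The eligible probe sets divided 70.2%, 21.1% and 8.7% in the same way, and the lost ones 59.3%, 26.6% and 14.1%. These shares are partly set by the rule, which needs each Doxy array below each No Doxy array. At a like relative difference, that is met more easily in a gene that was lower. The median own difference was -1.82 in steady genes, -0.93 in genes that were higher and -2.72 in genes that were lower. This order follows from the definitions and is no finding, since the own difference is the relative difference plus the median of the others. A loss of like relative size is a small absolute one in a gene that was higher and a large absolute one in a gene that was lower.

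**Figure D1:**
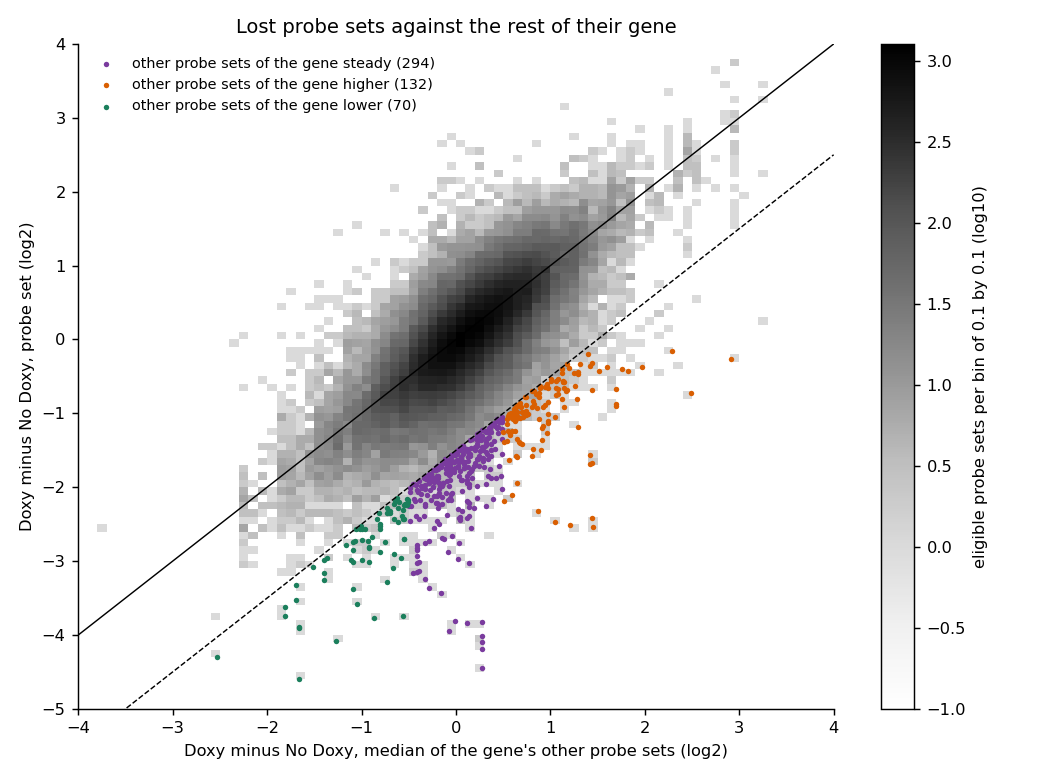
The Doxy minus No Doxy difference of each probe set (vertical axis, log2) is plotted against the median difference of the other probe sets of its gene (horizontal axis, log2). Grey bins count the 100684 eligible probe sets, the solid line marks equal differences, the dashed line marks 1.5 below it, and coloured points are the 496 lost probe sets (294 in steady genes, 132 in genes higher with Doxy and 70 in genes lower with Doxy).

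PROSER1, which encodes a proline- and serine-rich protein, held the lowest relative difference and the clearest block. Its 5 lost probe sets were consecutive in number order, the 10th to the 14th of 26, with relative differences from -4.73 to -4.11. The lowest, probe set 3510377, read 9.30 and 9.07 without Doxy and 4.67 and 4.80 with Doxy, a 21.9-fold lower signal. Its neighbours in the block read 8.15 to 9.60 in the No Doxy arrays and 3.96 to 6.49 in the Doxy arrays, and within each probe set the groups were 2.80 to 4.27 log2 units apart. The other 21 probe sets of the gene had a median difference of 0.41, none was lower than -0.58, and the sets on either side of the block differed by 0.00 and 0.09. The signal thus dropped inside the block alone and returned at its edges.

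RCOR3, a CoREST family corepressor that works with histone demethylase and deacetylase, held 3 consecutive lost probe sets, the 17th to the 19th of 21. The lowest read 8.79 and 8.81 without Doxy and 6.24 and 5.31 with Doxy, a relative difference of -3.17. The set just before the run differed by -0.97 and the set just after by -1.11. The latter was dim and its groups overlapped (3.25 and 5.24 without Doxy, 3.40 and 2.88 with Doxy). In contrast, the 9 sets from the 7th to the 15th stayed between -0.09 and 0.64. Among the brighter sets the lower signal thus lay toward 1 end of the gene. CNOT2, a subunit of the CCR4-NOT complex that shortens poly(A) tails, held 3 consecutive lost probe sets near the other end of its number order, the 6th to the 8th of 26. The 6th read 9.0 and 9.11 without Doxy and 7.38 and 7.60 with Doxy, the 7th 9.79 and 10.28 against 7.37 and 8.27, and the 8th 9.25 and 9.95 against 7.42 and 7.77. All stayed well above the array median with Doxy, so the signal was 2.97-fold to 4.65-fold lower and not gone.

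CREBBP, the histone acetyltransferase CBP, held 2 neighbouring lost probe sets of 47, the 30th and 31st. The 31st read 6.49 and 6.64 without Doxy and 3.36 and 3.03 with Doxy, and the 30th read 8.36 and 8.50 against 5.53 and 5.87. Their relative differences were -3.08 and -2.45, while the other 45 had a median difference of -0.27. The set just before the pair was lower too, with a difference of -1.38, and the set just after differed by 0.11. SRP9, a subunit of the signal recognition particle, held 2 of 15, and the lower read 7.33 and 7.28 against 4.09 and 4.58 beside a median of 9.89 and 9.96 over the rest of the gene in the Doxy arrays. SEC14L1 held a run of 3, the 24th to the 26th of 29, which read 8.71 to 9.81 without Doxy and 7.22 to 7.60 with Doxy. CREBBP's 31st probe set and SRP9's ended at low signal, whereas SEC14L1 stayed bright with Doxy.

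**Figure D2:**
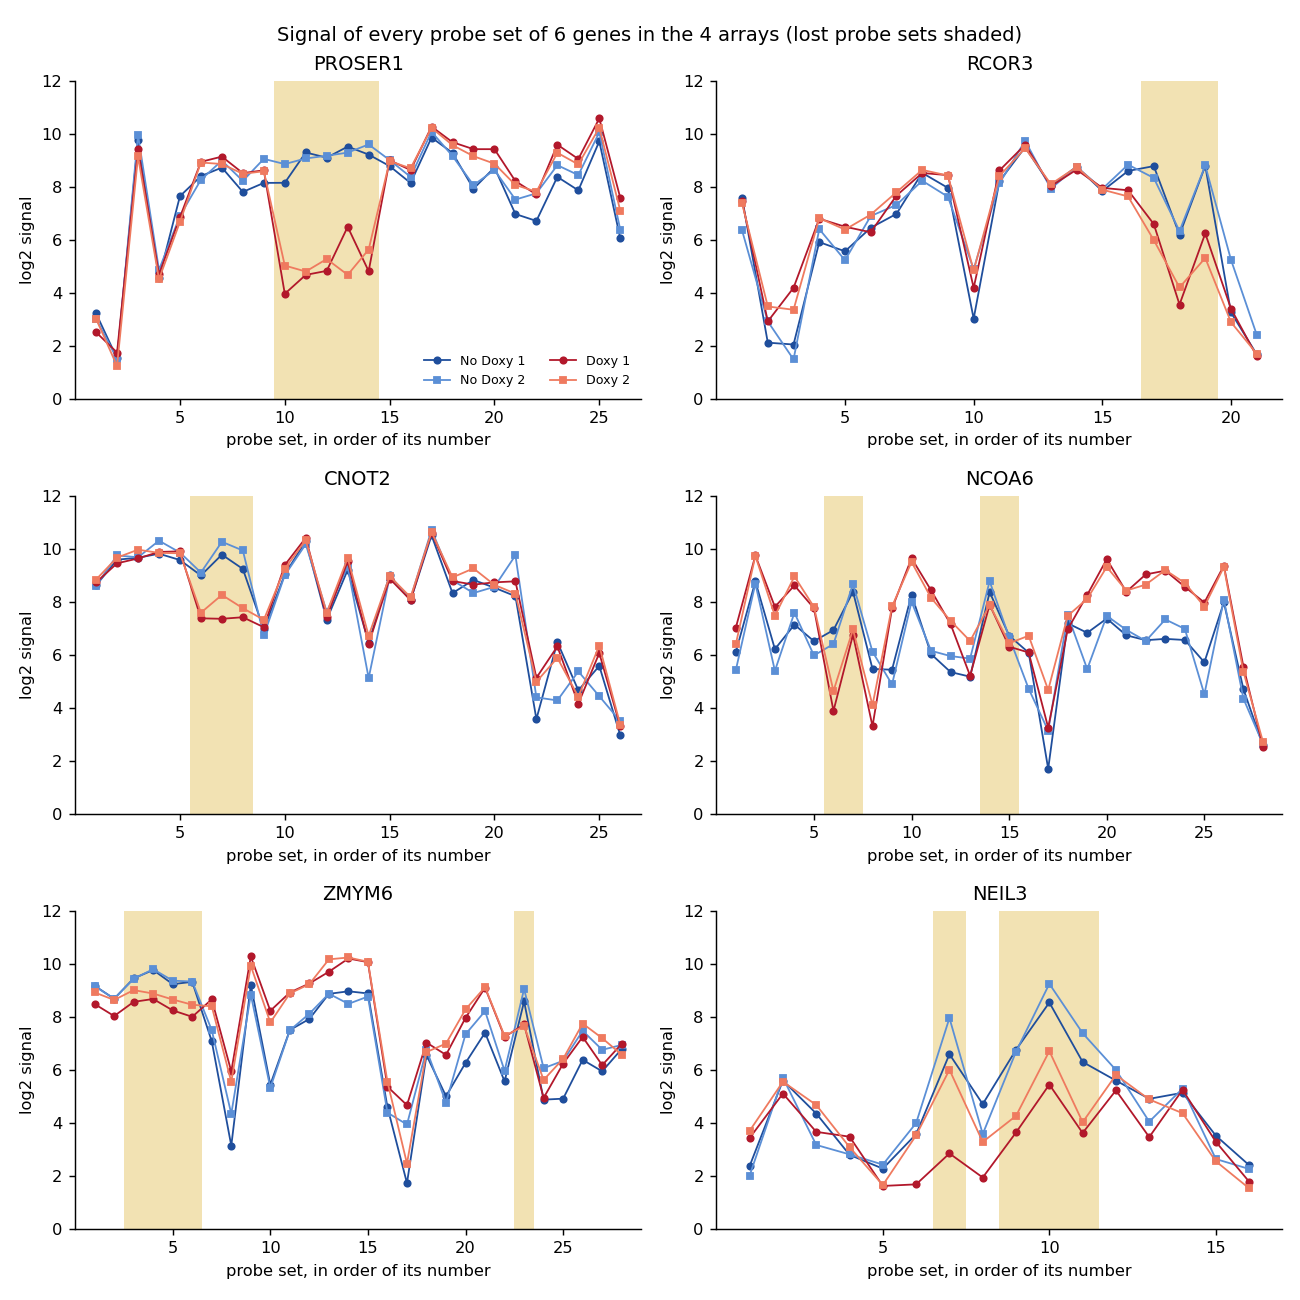
The log2 signal (vertical axis) of every probe set is plotted in order of its number (horizontal axis) in PROSER1, RCOR3, CNOT2, NCOA6, ZMYM6 and NEIL3, with a line for each of the 4 arrays and the lost probe sets shaded. The Doxy lines leave the No Doxy lines inside the block of PROSER1 and meet them again on both sides, whereas in NCOA6 and ZMYM6 the Doxy lines lie above the No Doxy lines over most other probe sets.

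Among the genes that were higher with Doxy, NCOA6, a nuclear receptor coactivator found in H3K4 methyltransferase complexes, held 4 lost probe sets in 2 neighbouring pairs, the 6th and 7th and the 14th and 15th of 28. The 6th read 6.94 and 6.41 without Doxy and 3.88 and 4.64 with Doxy, and the 7th 8.39 and 8.68 against 6.76 and 6.96. The 8th read 5.47 and 6.12 against 3.30 and 4.10, and missed the rule through its No Doxy mean. In contrast, 22 of the other 24 were higher with Doxy, with a median difference of 1.54. The gene as a whole and these probe sets therefore went opposite ways. TAB3, an adaptor of the kinase TAK1, did the same in 1 of its 19 probe sets, which read 6.04 and 6.49 against 3.80 and 3.66 while the others had a median difference of 1.45. THOC5, a subunit of the THO complex in mRNA export, read 7.89 and 7.99 against 5.53 and 5.71 in its 26th of 27 probe sets, beside 0.87 for the others. LRIF1, a nuclear protein that binds HP1, lost the 5th and 6th of 7 probe sets, with relative differences of -2.98 and -3.10.

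ZMYM6, an MYM-type zinc finger protein, held 5 lost probe sets, the 3rd to the 6th and the 23rd of 28. They read 8.59 to 9.81 without Doxy and 7.66 to 9.02 with Doxy, and their own differences were only -1.14 to -0.66. The 23 others had a median difference of 1.08, so that the rest of the gene and the probe sets' own differences were of like size. Just before the run, the 1st and 2nd probe sets of ZMYM6 came near the limit, with relative differences of -1.44 and -1.32. HSPA14, an Hsp70 family member at the ribosome, held 4 of 29, the 5th, 9th, 11th and 13th, with relative differences from -2.60 to -1.69. They lay in 1 low stretch, since the 5th to the 13th had own differences between -1.95 and 0.02. The 14th to the 20th were higher by 1.44 to 2.71. The 6th had a relative difference of -2.01 and missed the rule through its No Doxy mean of 5.69. DMD, the dystrophin gene, held 3 lost probe sets, the 5th, 7th and 8th of 108, with own differences between -0.90 and -0.67. Of its other 105 probe sets, 90 were higher with Doxy, with a median difference of 1.71. The rise was uneven along the number order. Differences lay between -0.90 and 1.25 from the 1st to the 25th, and between 1.47 and 3.43 from the 70th to the 104th. The 2nd, 15th and 21st had relative differences of -2.26, -2.24 and -2.33 and missed other criteria. The 3 lost probe sets were thus not set apart from others near them.

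The farthest case of this kind was ACSS2, which makes acetyl-CoA from acetate. Its 3rd of 27 probe sets read 7.50 and 7.52 without Doxy and 7.29 and 7.20 with Doxy, only 1.2-fold lower, and its relative difference of -3.18 came from others with a median difference of 2.92. The median of those others was 4.68 and 4.60 without Doxy and 7.30 and 8.16 with Doxy, so that the chosen probe set was bright in all 4 arrays and the rest of the gene came up to it. Against the bright probe sets of the gene alone, those with a No Doxy mean of at least 6, its relative difference was -2.07. METAP1D, a mitochondrial methionine aminopeptidase, was alike, with an own difference of -0.72 beside 2.49 for the others. In ZNF596, a zinc finger gene, and HYPK, a chaperone-like partner of the NatA acetyltransferase, own differences of -2.52 and -2.47 stood beside 1.21 and 1.05.

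**Figure D3:**
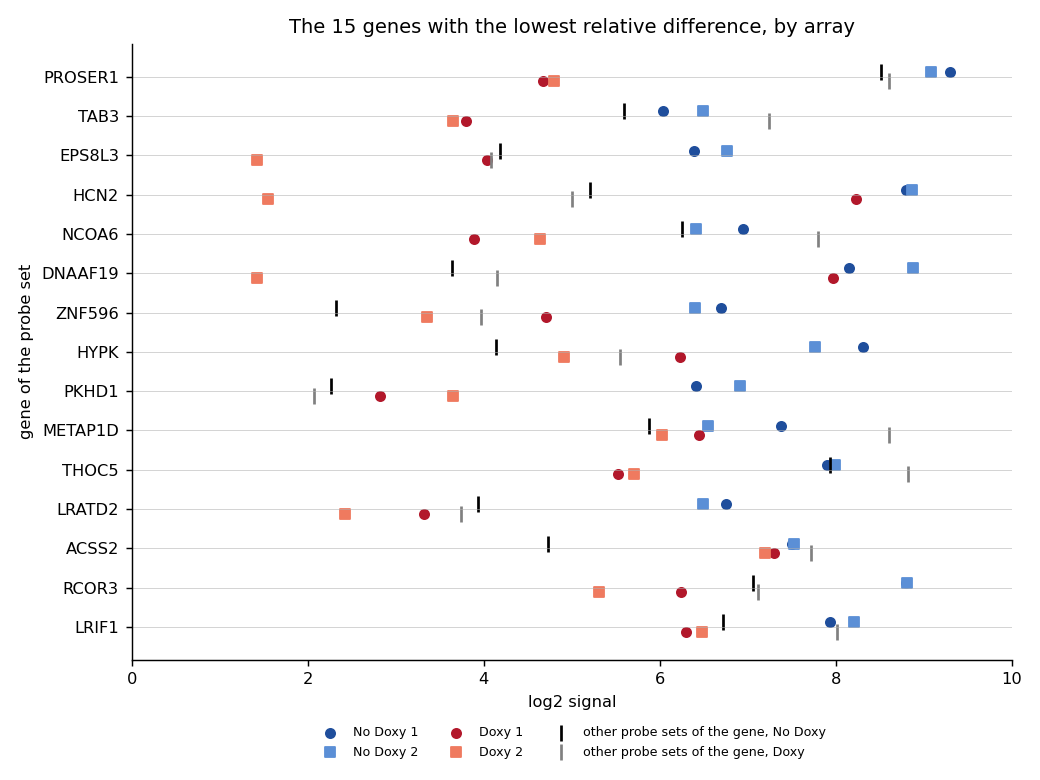
The log2 signal (horizontal axis) of the lowest lost probe set in each of the 15 genes with the lowest relative difference is shown in the 2 No Doxy arrays (blue) and the 2 Doxy arrays (red), with the median of the group means of the gene's other probe sets as vertical ticks. The ticks of TAB3, NCOA6, METAP1D and ACSS2 move right with Doxy while the points move left, and HCN2 and DNAAF19 have 1 Doxy array close to the No Doxy arrays.

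Among the genes that were lower with Doxy, SKA3, PARPBP and CDC45 were read in detail. SKA3, a subunit of the kinetochore complex that holds microtubules, held 2 neighbouring lost probe sets of 16. The 6th read 7.24 and 7.65 without Doxy and 3.27 and 3.81 with Doxy, and the 5th 7.94 and 8.01 against 2.15 and 4.61. The others had a median difference of -1.66, and the relative differences were -2.24 and -2.93, the second of which was -1.54 without Doxy array 1. PARPBP, which restrains homologous recombination, read 8.21 and 8.21 against 3.75 and 4.51 in its 14th of 22 probe sets. CDC45, a part of the replicative helicase, held 3 consecutive lost probe sets, the 4th to the 6th of 20, and the 5th read 8.09 and 7.98 against 4.50 and 6.15. The relative differences of the run were -1.69, -2.16 and -1.89, and -0.54, -0.99 and -0.91 without Doxy array 1. Against the bright probe sets of the gene alone, those with a No Doxy mean of at least 6, they were -0.93, -1.40 and -1.13. In SKA3 and CDC45, Doxy array 1 was the lower of the Doxy arrays in each lost probe set.

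The widest gaps between the groups, the lower No Doxy array minus the higher Doxy array, were 4.27 in PROSER1, 3.83 in TSPAN7 and 3.70 in PARPBP. They were followed by SKA3 (3.43), ITGA1 (3.30), LRATD2 (3.16), H1-6 (3.16), CREBBP (3.12), LOC100130691 (3.10) and MTURN (2.93). TSPAN7, a tetraspanin, read 6.38 and 6.44 against 2.49 and 2.55. Apart from PROSER1 and CREBBP, these probe sets lay in genes whose others were themselves lower with Doxy, by a median of -2.54 in H1-6, a testis linker histone, to -0.56 in LRATD2. BCL2, the antiapoptotic protein, was of this kind too, with 6.40 and 5.83 against 3.02 and 3.17 beside -1.09 for the others.

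The size of the relative difference depended on which probe sets stood for the rest of the gene, many of which were dim. The median No Doxy signal of the other probe sets was under 6 for 313 of the 496 lost probe sets (63.1%), against 28.3% of all eligible ones. A probe set that is dim in every array has little room to go lower, and the part of this in the relative differences was not tested. When only probe sets with a No Doxy mean of at least 6 stood for the rest of the gene, 396 of the 496 were in genes with at least 4 of them. Of these, 272 stayed at -1.5 or lower, 93 lay between -1.5 and -1, and 31 were above -1. NEIL3, a DNA glycosylase, shows the difference. Its 4 lost probe sets of 16, the 7th and the 9th to the 11th, were its only ones with a No Doxy mean of at least 6, and their own differences were close, from -3.02 to -2.78. Against one another their relative differences were -0.20 to 0.08, while the dim remainder of the gene had a median difference of -0.31. AIRIM, a protein of ribosome assembly, was similar, with 5 lost of 15 probe sets and relative differences of -1.15 to 0.27 against its bright ones. The lowest probe sets of LOC100130691 (-0.93 in place of -2.29), LRATD2 (-1.32 in place of -3.19) and CASP6 (-0.93 in place of -1.502) moved by over 1.5 times too, as did those with the widest gap in MTURN (-0.62), ITGA1 (-1.07) and H1-6 (-1.14), and the one in POLQ (-0.86). LRATD2 and H1-6 have fewer than 4 bright probe sets. PKHD1, the gene of the ciliary protein fibrocystin, had others at a median of only 2.26 without Doxy, and its lost probe set read 6.41 and 6.91 against 2.82 and 3.65. EPS8L3, an EPS8-like protein, had others at 4.19, and its lost probe set read 6.38 and 6.76 against 4.03 and 1.42. In other genes the bright reference changed little, with -4.86 in place of -4.73 in PROSER1, -3.91 in place of -3.86 in NCOA6 and -3.09 in place of -3.17 in RCOR3.

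The size also rested on single arrays in part. The relative difference was computed for each of the 4 pairs of a Doxy and a No Doxy array, and 311 lost probe sets were at -1 or lower in all pairs and 125 at -1.5 or lower in all pairs. Of these 125, 92 in 68 genes were at -1.5 or lower against bright probe sets too. The Doxy arrays differed by over 2 in 40 lost probe sets and the No Doxy arrays in 9. In HCN2, a pacemaker channel, the values were 8.80 and 8.87 without Doxy and 8.23 and 1.55 with Doxy, and without Doxy array 2 the relative difference was -0.51 in place of -3.86. DNAAF19, an assembly factor of ciliary dynein arms, read 8.15 and 8.87 against 7.97 and 1.42, and its relative difference was -0.62 without that array. BUB1, a kinase of the spindle checkpoint, leaned on the other one, with 6.73 and 7.83 against 2.35 and 6.72, and was at -0.44 without Doxy array 1. The relative differences of PARP2 (-0.55), EIF2B3 (-0.53), RAD54L (-0.63), BIRC5 (-0.65), MCM10 (-0.67), EIF4ENIF1 (-0.71), MRE11 (-0.81), POLQ (-0.85), SMC4 (-0.86), USP3 (-0.89) and NTHL1 (-0.98) were above -1 without Doxy array 1, as was 1 probe set of NEIL3 (-0.74). GEN1 (-1.18) and the 7th probe set of AIRIM (-1.82) moved by over 1.5 times without that array. PCM1 (-0.61), RPA3 (-0.70) and 1 probe set of AARSD1 (-0.91) were above -1 without Doxy array 2, and SCAF1 was then at -1.62 in place of -2.57. Without No Doxy array 1, LRSAM1 (-0.96), FTCD (-0.84) and DHX38 (-1.14) moved as far, and without No Doxy array 2, PLEC (-0.74), SREBF1 (-0.99), CASP6 (-0.74) and the 9th probe set of AIRIM (-1.0) did. The lost probe sets of PROSER1, RCOR3, CNOT2, NCOA6 and CREBBP all stayed at -1.5 or lower with any array left out.

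To read the measure in arrays that the choice had not used, the rule was applied to the arrays numbered 1 alone and the probe sets found were read in the arrays numbered 2. With No Doxy array 1 and Doxy array 1, 1334 probe sets were chosen, with a median relative difference of -1.83. Only 292 of these 1334 were among the lost probe sets. The percentages below therefore describe the probe sets chosen on 1 pair and are not a repeat rate of the lost ones. In the other pair the median of the 1334 was -0.39, 64.3% were below 0 and 15.6% (208) were at -1.5 or lower. Over all 103695 probe sets that were bright in No Doxy array 1, the corresponding median was -0.05, 54.2% were below 0 and 1.47% were at -1.5 or lower. Most probe sets chosen on 1 pair thus did not reach the limit in the other pair, although they reached it more often than the background. The background was not matched for how bright the rest of the gene was, and the part of that brightness in this contrast was not tested. The chosen probe sets were also more widely spread, since 6.45% of them lay at 1.5 or higher in the other pair, against 2.28% of the background. With the roles of the pairs exchanged, 9.78% of 2301 were at -1.5 or lower, against 0.822%, and 2.78% at 1.5 or higher, against 0.547%.

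**Figure D4:**
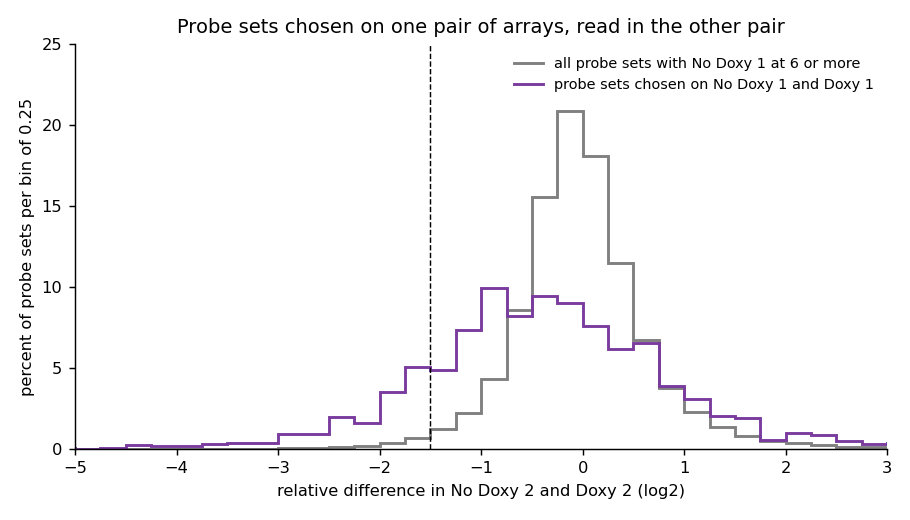
The relative difference in No Doxy array 2 and Doxy array 2 (horizontal axis, log2) is shown as the percent of probe sets per bin of 0.25 (vertical axis) for the 1334 probe sets chosen on the arrays numbered 1 (purple) and for all 103695 that were bright in No Doxy array 1 (grey). The purple curve reaches farther left of the dashed line at -1.5, where it holds 15.6% against 1.47%, and most of it lies to the right of that line.

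Of the 415 genes, 366 held 1 lost probe set, 29 held 2, 12 held 3, 4 held 4 and 4 held 5. In 29 genes at least 2 lost probe sets were consecutive in number order, 73 probe sets in all, and in 8 genes at least 3 were. A run of 3 also lay in SRCAP, the ATPase of a chromatin remodeller, which held 5 of 58 between the 27th and the 36th. Lost probe sets were the first or the last of their gene in 14.9% of cases, against 9.48% of the eligible ones. The files give no strand and no exon for a probe set, so an end of the number order is not named as 5′ or 3′ here, and neighbouring probe sets may lie in 1 exon. Of the 403 genes found in the RefSeq gene table, 26.8% overlapped another protein-coding gene there, against 23.2% of eligible genes, and AARSD1 (4 lost of 19), HSPA14, PARPBP, LRIF1 and SRCAP were among them. Signal from the overlapping gene was not separated.

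The genes were then read by function, over 22 lists of RNA processing, DNA repair, chromatin, ubiquitin, cell cycle and other pathways. The lists held 89 lost of 20675 eligible probe sets (0.43%), slightly below the 0.493% of all. By genes the share was above the background, with 67 of 1248 genes against 415 of 12580 (3.3%). Genes in the lists held more eligible probe sets each (20675 in 1248 genes, against 100684 in 12580). The gene shares were not adjusted for this. Apoptosis and p53 genes held 5 of 421 (1.19%), in BCL2, BCL2L13, PDCD6IP, the death receptor FAS and the executioner caspase CASP6. The probe set of CASP6 was the member nearest to the limit and was at -0.74 without No Doxy array 2. Genes of excision, mismatch and end-joining repair held 8 of 742 (1.08%), of which 4 were those of NEIL3 described above, at -0.20 to 0.08 against bright probe sets. The others were in PARP2, the translesion factor REV1, the glycosylase NTHL1 and the polymerase POLQ. Without Doxy array 1, REV1 was at -1.66, and those of PARP2, NTHL1 and POLQ were above -1. These counts are small, and no list was tested.

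Homologous recombination and Fanconi anemia genes held 5 of 653 (0.766%), among them 1 each in RMI2, the resolvase GEN1, RAD54L and MRE11. GEN1 read 7.28 and 7.38 against 3.69 and 5.50, beside -0.93 for the others, so that the remainder of the gene was lower too. RMI2, a subunit of the BLM dissolvasome, read 6.58 and 7.0 against 3.99 and 5.44 in the last of 7, beside -0.11, and was at -1.21 without Doxy array 1.

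Splicing and RNA-binding genes stood on both sides of the background. SR and SR-like factors held 2 of 564 (0.355%), in SCAF1 and TRA2B, and the core spliceosome 2 of 849 (0.236%), in the helicase DHX38 and in PRPF40B. TRA2B, a splicing activator that binds exonic enhancers, read 9.76 and 9.77 against 8.21 and 8.18 in the 15th of 17, a small loss with a narrow spread. Genes of hnRNPs and related proteins held 5 of 706 (0.708%). HNRNPDL, an hnRNP D-like protein, held 3 of them, the 1st, 3rd and 4th of 22, and the 3rd read 8.54 and 8.50 against 6.58 and 6.68. MBNL2, a muscleblind splicing regulator, read 8.34 and 8.82 against 6.72 and 6.68, and HNRNPUL1 8.84 and 8.79 against 6.86 and 7.08. Genes of mRNA decay, export and 3′ end processing held 6 of 1068 (0.562%), in CNOT2, THOC5, the polyadenylation factor WDR33 and the exon junction protein MAGOHB.

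Histone methyltransferases and demethylases with their partners held 7 of 1006 (0.696%), 4 of them in NCOA6. The demethylase KDM6A and the methyltransferases DOT1L and EHMT1 held 1 each, with relative differences of -1.65, -1.59 and -1.53. Chromatin remodellers and acetylation genes held 9 of 1515 (0.594%), 5 in SRCAP, 2 in CREBBP and 1 each in EP400 and HDAC6. Genes of spindle, kinetochore and centrosome held 7 of 1339 (0.523%), in SKA3, CEP55, PCM1, BUB1, BIRC5 and KIF23. DNA replication genes held 5 of 767 (0.652%), in CDC45, RPA3 and MCM10.

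At the low end, no proteasome subunit held a lost probe set among 453 eligible. ER and Golgi transport genes held 1 of 1537 (0.0651%), in the COPII coat gene SEC31A, whose last of 40 probe sets read 10.40 and 10.30 against 8.83 and 9.10. Nuclear pore genes held 1 of 1123 (0.089%), in AAAS. RNA helicases held 1 of 750 (0.133%), in DHX38, translation factors and tRNA synthetases 2 of 937 (0.213%), in EIF4ENIF1 and EIF2B3, and sterol and fatty acid synthesis genes 2 of 557 (0.359%), in ACSS2 and SREBF1. Ubiquitin ligases held 7 of 1907 (0.367%), among them RNF41, FBXO22 and SKP2, and deubiquitinases and conjugating enzymes 2 of 1012 (0.198%), in USP20 and USP3. Cohesin and condensin genes held 2 of 561 (0.357%), in the cohesin loader NIPBL and in SMC4. SKP2, which marks CDKN1B for degradation, read 8.86 and 9.13 against 6.71 and 6.96 in its 12th of 13. Cytoskeletal genes held 7 of 1553 (0.451%), in DMD, MAP4, PLEC and TLN2, and MAP kinase and related signalling genes 4 of 837 (0.478%), in MAP3K3, MAPK10, MAP4K4 and MAPK3.

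**Figure D5:**
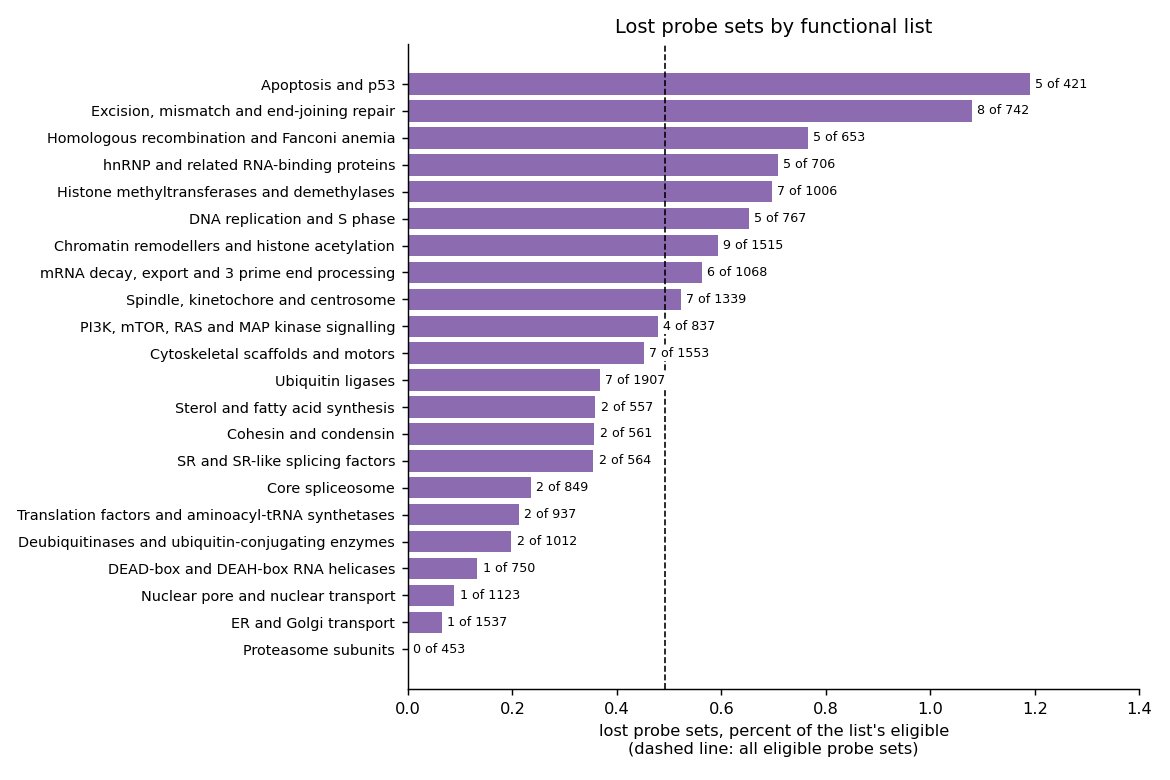
Bars give the lost probe sets of each functional list as a percent of its eligible probe sets (horizontal axis), with both counts beside each bar, and the dashed line marks the 0.493% of all eligible probe sets. The apoptosis list (5 of 421) and the excision, mismatch and end-joining repair list (8 of 742) have the longest bars, and the proteasome list (0 of 453) has none.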

How the data were processed

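RNA of A2780/SRSF3si2 cells was labelled with Affymetrix kits and hybridised to Human Exon 1.0 ST arrays. The deposited values are log2 signals of core exon probe sets, which the authors made by the RMA method in Expression Console. RMA options and the build used are not given in the sources used. Array numbers limit the precision, with 2 in each group.

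Values were read with pandas 2.3.3 and numpy 2.4.6 in Python 3.11.15. Probe sets that list several symbols (9155) or no symbol (16901) did not enter. Genes were grouped by the symbol of the platform annotation. Of 415 symbols with a lost probe set, 340 were current in RefSeq (GRCh38.p14), 73 received its newer name, such as PROSER1 (C13orf23), AIRIM (C1orf109), TAB3 (MAP3K7IP3) or DNAAF19 (CCDC103), and 2 stayed as listed. The code of the rule was run on simulated arrays with planted losses. Their noise was equal in all probe sets and the groups differed in nothing else, unlike in these data. How well the rule performs on the measured arrays was therefore not tested.

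Members, lists and the rule for named genes were chosen with earlier results of these data known. Named are the 15 genes with the lowest relative difference, the 10 with the widest gap, the 6 with most members, up to 4 members of each list, the 3 probe sets on either side of the limit, and SRSF3, KMT2C, BRCA1 and BRIP1. Further names (SRP9, SEC14L1, HSPA14, AARSD1, CDC45's whole run and the remaining members of short lists) and the limit of 0.5 that divides genes were chosen after the values were seen. Alternatives were other limits and references, centred or quantile-normalized arrays, and each array left out. One member of the homologous recombination list is not reported here.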

Additional observations from a re-analysis of the deposited data

How the results depend on the processing

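No paired test was run, because the results come from no test that a replicate block could enter. No source links equally numbered arrays, and the difference between the arrays of a group correlated at 0.11 between No Doxy and Doxy, over gene means. The 496 lost probe sets in 415 genes became 1858 in 1505 genes with a limit of 1.0 and 134 in 110 with a limit of 2.0. They became 881 in 753 genes with a No Doxy minimum of 5, 251 in 214 with one of 7, and 292 in 239 (272 shared) when only bright probe sets stood for the rest of the gene. Leaving out 1 array gave 844 to 1692 probe sets in 719 to 1464 genes, with 310 to 402 of the 496 among them, and the cause of the rise was not tested. The other alternatives gave 472 to 592 probe sets, with 538 (494 shared) after centring and 584 (493 shared) after quantile normalization. Centring, which lowers each difference by 0.16, divided the lost probe sets into 318 in steady genes, 110 in higher and 110 in lower ones, against 294, 132 and 70. The 831 gained probe sets became 59 with the minimum of 6 on the No Doxy mean. Of the probe sets chosen on the arrays numbered 1 alone, 15.6% repeated in the arrays numbered 2. This share was 9.78% and 10.6% when the choice used No Doxy array 2 with Doxy array 2 or 1. It was 16.1% with No Doxy array 1 and Doxy array 2. Of 106 named probe sets, none changed sign under centring, quantile normalization, the mean as reference or any array left out. Against bright probe sets, 70 of the 100 in genes with at least 4 of them stayed at -1.5 or lower, and AIRIM probe set 2407266 (0.27) and NEIL3 probe sets 2752741 (0.077) and 2752746 (0.031) changed sign, where the bright reference consists largely of other lost probe sets. A dim signal limits what a loss can show.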
